A study of Homo sapiens with 32 samples.

Results

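The genes of the interleukin-1 family and of the inflammasome were followed here in THP-1 cells, a human monocytic line derived from a leukaemia. They comprised 10 genes of the 16920 named on the array: the ligands IL1A, IL1B and IL18, the inhibitors IL1RN and IL18BP, the receptor chains IL1R1 and IL1RAP, and the inflammasome genes NLRP3, PYCARD and CASP1. The members were taken by gene symbol from the platform annotation, which gave 19 of 24518 probes. Of these, 14 probes of 9 genes were bright enough to be tested. The 5 others were above background on none of the 32 arrays. They were the only probe of IL1R1 and 1 probe each of IL1RN, IL18BP, IL1RAP and CASP1.

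All cells were starved overnight in medium with 0.1% foetal calf serum and then kept for 24 h with LPS at 100 ng/ml and TGFβ1 at 1 ng/ml together, with LPS alone, with TGFβ1 alone, or with PBS as the control. LPS, from the outer membrane of Gram-negative bacteria, is recognised by TLR4, and TGFβ1 is a cytokine that signals through SMAD proteins. Each treatment had 8 arrays, numbered 1 to 8, and each of 4 chips held 2 arrays of every treatment (replicates 1 and 2 on chip 1, 3 and 4 on chip 2, 5 and 6 on chip 3, 7 and 8 on chip 4). The labels do not say that replicates were separate cultures, so each p-value is relative to an array-to-array spread that may be technical. A single cell line was used. By the labels each treatment kept to the same places on every chip, except that 4 LPS+TGFβ1 arrays carry the place of 4 TGFβ1 arrays, which leaves their true place unknown. An effect of place and one of treatment cannot be told apart, nor can fewer cells expressing a gene and less RNA per cell.

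IL-1α and IL-1β are inflammatory cytokines that signal through the same receptor, made of IL1R1 and the accessory chain IL1RAP. The antagonist encoded by IL1RN occupies that receptor without signalling. IL-1β and IL-18 are made as inactive precursors and are cut by caspase-1, which is activated when a sensor such as NLRP3 assembles with the adaptor PYCARD into an inflammasome, and IL-18 is neutralised by IL18BP. In monocytes, transcription of IL1B and the cutting of its product are separate steps, and the arrays measure only RNA.

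Arrays had 12119 to 13475 probes above background and upper quartiles of intensity between 345 and 381. Of the monocyte and macrophage markers on the array, 8 of 8 were above background on all 32 arrays, whereas 4 of 4 T cell and 2 of 2 NK cell markers were above background on none. CD79A and MS4A1, the B cell markers on the array, passed on 18 and 2 arrays. Of 3 markers each, epithelial CDH1, fibroblast DCN and endothelial VWF passed on 18, 16 and 10 arrays, PECAM1, which monocytes also express, passed on all 32, and the other epithelial, fibroblast and endothelial markers passed on none. The mean levels of CDH1, DCN and VWF differed between treatments. CDH1 averaged 198 with LPS+TGFβ1, 34.2 with LPS, 59.8 with TGFβ1 and 21.1 with PBS. DCN averaged 167 with LPS+TGFβ1, 226 with LPS, 22.1 with TGFβ1 and 24.5 with PBS, and VWF 67.6, 76.5, 34.5 and 25.1 in that order. Their part in the member results was not tested. The arrays within a treatment did not scatter evenly. The first principal component of the residuals held 42.3% of their variance, and in several members below, the LPS-treated arrays numbered 2, 5, 6 and 8 stood apart from those numbered 1, 3, 4 and 7. Arrays without LPS were uneven too, but there number 7 lay away from 1, 3 and 4. The median absolute log2 difference over tested probes was 0.12 between TGFβ1 arrays 1 and 3 and 0.21 between 1 and 7. For PBS it was 0.09 between arrays 3 and 4 and 0.24 between 3 and 7. With LPS it was 0.10 between arrays 1 and 7 and 0.24 between 1 and 2. What sets arrays of 1 treatment apart was not tested.

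Start regions of IL1B, IL1A and IL1RN, members that LPS raised, are shown first so that their letters can be compared. RefSeq windows from 250 bases before to 50 after a gene start (GRCh38.p14) were found for 8 of the 10 members, and none was matched for CASP1 or IL18. All the stretches below lie on chromosome 2 and are written 5′ to 3′ along the gene. Capitals mark matches, on either strand, to the C/EBP letters TTNNGNAA, the AP-1 letters TGANTCA, a spaced IRF motif or the TATA box. A spaced NF-kB motif and the palindromic SMAD motif were searched as well. IL1B is on the minus strand at chr2:112836730-112837029, and IL1A on the minus strand at chr2:112784351-112784650. IL1RN is on the plus strand, with an upstream start at chr2:113117721-113118020 and a downstream start at chr2:113127348-113127647. IL1A has 2 and IL1RN 3 starts in the table, and the IL1A and IL1RN starts not printed have windows that overlap those shown.
IL1B: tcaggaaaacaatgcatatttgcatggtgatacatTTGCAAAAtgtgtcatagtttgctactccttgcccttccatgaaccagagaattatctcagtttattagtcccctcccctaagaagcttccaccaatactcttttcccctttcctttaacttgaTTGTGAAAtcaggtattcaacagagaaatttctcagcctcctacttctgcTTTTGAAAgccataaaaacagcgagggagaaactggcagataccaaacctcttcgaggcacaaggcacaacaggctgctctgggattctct
IL1A: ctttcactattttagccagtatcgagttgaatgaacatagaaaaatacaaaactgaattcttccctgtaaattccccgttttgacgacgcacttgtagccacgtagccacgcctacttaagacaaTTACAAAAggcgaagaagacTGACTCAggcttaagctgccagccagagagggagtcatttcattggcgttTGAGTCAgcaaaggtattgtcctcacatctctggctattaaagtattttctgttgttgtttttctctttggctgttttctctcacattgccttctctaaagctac
IL1RN upstream start: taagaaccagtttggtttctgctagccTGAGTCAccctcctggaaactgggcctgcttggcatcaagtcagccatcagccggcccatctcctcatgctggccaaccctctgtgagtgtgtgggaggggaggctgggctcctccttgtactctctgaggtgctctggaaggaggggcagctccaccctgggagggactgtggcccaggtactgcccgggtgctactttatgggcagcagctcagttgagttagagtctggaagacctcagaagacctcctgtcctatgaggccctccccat
IL1RN downstream start: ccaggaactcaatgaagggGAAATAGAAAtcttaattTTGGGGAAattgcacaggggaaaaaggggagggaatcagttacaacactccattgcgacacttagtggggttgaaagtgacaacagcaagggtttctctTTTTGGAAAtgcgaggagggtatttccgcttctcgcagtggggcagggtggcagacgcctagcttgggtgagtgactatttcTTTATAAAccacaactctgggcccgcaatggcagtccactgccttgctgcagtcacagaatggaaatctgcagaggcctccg

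The IL1B window held 3 C/EBP matches and no match to the other motifs. The IL1A window shown held 2 AP-1 matches, at positions -105 and -55 from the gene start, and 1 C/EBP match. In the other IL1A window the AP-1 matches lie at -12 and 39, beside 2 C/EBP matches and a TATA box at -239. The upstream IL1RN window held a single AP-1 match, and the downstream window held an IRF match at position -231, 3 C/EBP matches, of which 2 overlap, and 2 overlapping TATA box matches at position -32. The third IL1RN window held the IRF match at -122 and 3 C/EBP matches. Among all 35116 windows of this length, 36.8% held the C/EBP letters, 25.6% the NF-kB letters, 11.5% the TATA box, 7.71% the AP-1 letters, 3.57% the IRF letters and 0.202% the SMAD letters. A match describes the letters only, and the array does not say which IL1RN start was used.

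LPS raised 6 member probes and lowered 2 of the 14 tested against PBS. Of all probes tested, 41.9% were called in this comparison, 20.9% higher and 21.0% lower. The 6 that rose were the probes of IL1A, IL1B, IL1RN and CASP1, and the 2 that fell were IL18BP and 1 of the 3 NLRP3 probes. TGFβ1 alone raised 6 against PBS, where 13.2% of all probes were called (7.54% higher, 5.70% lower): IL1B, IL18BP, both IL1RAP probes and both CASP1 probes. With both agents 7 rose and 4 fell against PBS (39.9% of all probes called, 18.0% higher and 21.9% lower). LPS+TGFβ1 against LPS gave 1 rise, in IL1RAP, and 2 falls, in IL1B and IL18BP, where 18.3% of all probes were called (8.19% higher, 10.1% lower). LPS+TGFβ1 against TGFβ1 gave 6 rises and 1 fall (31.5% of all probes called, 14.9% higher and 16.5% lower). LPS against TGFβ1 gave 6 rises and 4 falls (42.4%, with 22.8% higher and 19.6% lower). The median log2 change over the 14 probes was 0.10 for LPS against PBS, 0.15 for TGFβ1 against PBS and -0.09 for LPS+TGFβ1 against LPS, beside 0.05, -0.04 and -0.07 over all probes. IL1A passed the brightness filter only through the groups that had LPS. Values are log2(intensity + 50), which understates the change of dim genes, and calls are limma's at a Benjamini-Hochberg adjusted p under 0.05 over 18388 probes.

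The split between rises and falls depends on the scaling of the arrays. For LPS against PBS it was 6 and 5 with quantile normalization or with arrays scaled to a common median, and over all probes 3343 rose and 5133 fell with quantile normalization, and 2626 and 4856 with median scaling, against 3848 and 3857 as deposited. With quantile normalization TGFβ1 against PBS gave 5 member rises and 2 falls. Over all probes it gave 1429 rises and 1415 falls, against 1386 and 1048 as deposited. LPS+TGFβ1 against TGFβ1 gave 6 member rises and 4 falls with quantile normalization. Over all probes 2560 rose and 3792 fell there, against 2746 and 3042 as deposited. With median scaling LPS+TGFβ1 against LPS called only the IL1RAP rise, and over all probes 2066 rose and 884 fell, against 1506 and 1861 as deposited. For LPS against TGFβ1 the members kept 6 rises and 4 falls, while over all probes 3312 rose and 4451 fell with quantile normalization and 2612 and 4607 with median scaling, against 4187 and 3610 as deposited. In the interaction test 729 probes were called higher and 419 lower with median scaling, against 518 and 821 as deposited, and the 2 member calls were lower in each.

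**Figure D1:**
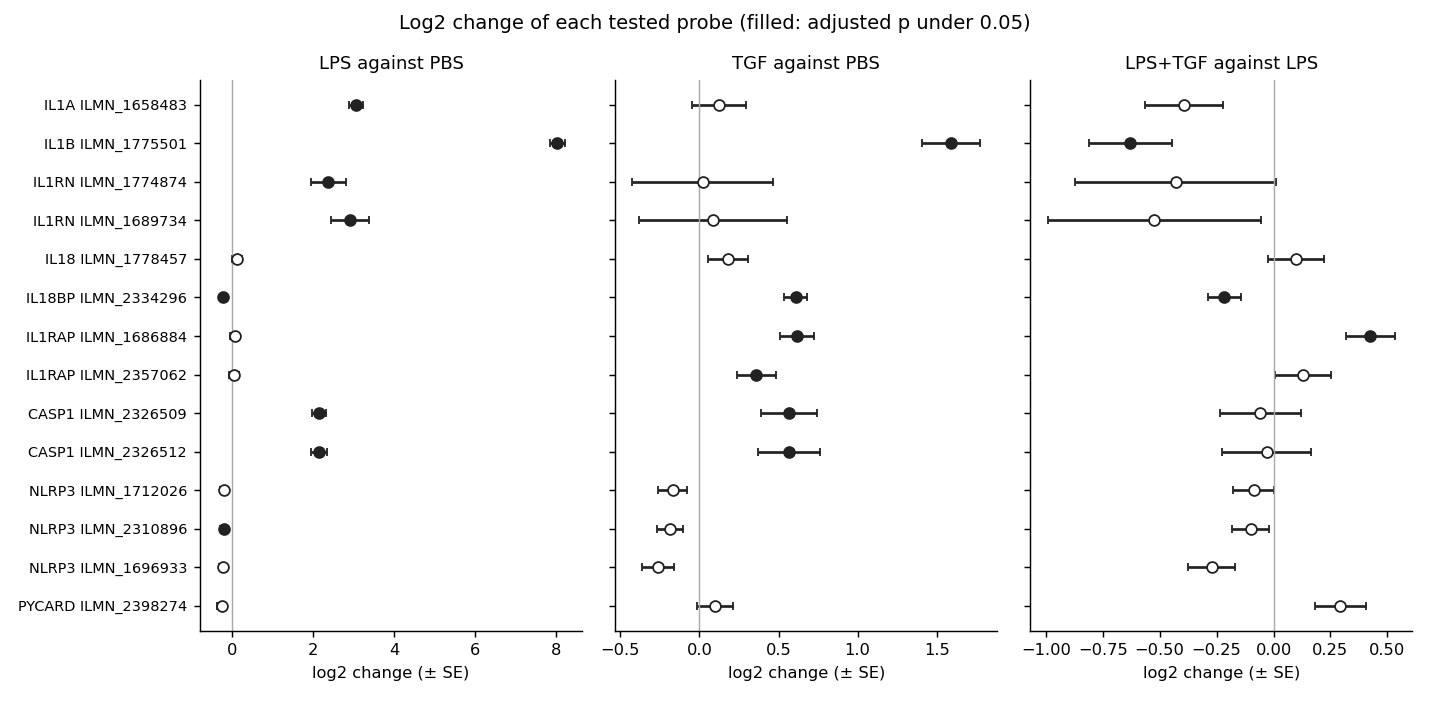
Log2 change with its standard error for each of the 14 tested member probes in 3 comparisons (8 arrays per treatment, x axes of different range). Filled points passed the adjusted threshold. IL1B has the largest change in each of the 3 panels, at 8.03, 1.59 and -0.63.

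IL1B, which encodes interleukin-1β, was the most strongly induced member. Its intensities in replicates 1 to 8 were 31560, 10287, 29315, 24017, 12723, 11860, 30140 and 12992 with LPS+TGFβ1. With LPS they were 23774, 30166, 28804, 28666, 28586, 27507, 29158 and 32816. With TGFβ1 they were 331, 246, 315, 324, 256, 274, 223 and 294, and with PBS 64.2, 75.5, 35.9, 32.7, 87.4, 67.2, 51.8 and 76.8. Every LPS array lay within a narrow band, while the LPS+TGFβ1 arrays numbered 2, 5, 6 and 8 were below all LPS arrays and the other 4 lay among them. No TGFβ1 array overlapped a PBS array.

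LPS raised IL1B by 8.03 ± 0.18 (SE) on the log2 scale against PBS, and TGFβ1 alone by 1.59 ± 0.18 (adjusted p = 3.02e-08), higher in 8 of 8 same-numbered pairs. The TGFβ1 rise was between 1.31 and 2.13 within the 4 chips. With both agents IL1B was lower than with LPS alone by a log2 change of -0.63 ± 0.18 (adjusted p = 0.0129), or -0.57, -0.11, -1.19 and -0.64 within chips 1 to 4. That call was lost without chip 3 (-0.44, adjusted p = 0.192), without chip 4 (adjusted p = 0.0511), and without the arrays numbered 2, 5, 6 or 8, where adjusted p lay between 0.0576 and 0.0787. The LPS effect was smaller in the presence of TGFβ1 than in its absence by -2.22 ± 0.26 (interaction, adjusted p = 2.38e-07), a test in which 2 of 14 member probes and 7.28% of all probes were called (2.82% higher, 4.46% lower). This difference was between -2.06 and -2.50 within the 4 chips. The interaction includes the TGFβ1 rise without LPS, which was 1.59 of it. In order of level, LPS, LPS+TGFβ1, TGFβ1 and PBS all differed from their neighbours.

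IL1A, which encodes interleukin-1α, was above background on all arrays with LPS and on none without it. Its intensities in replicates 1 to 8 were 429, 272, 403, 397, 323, 324, 494 and 311 with LPS+TGFβ1. With LPS they were 298, 654, 322, 330, 706, 683, 350 and 934. The TGFβ1 arrays lay between 4.75 and 37.1 and the PBS arrays between 2.74 and 31.5. IL1A was at least 5.96-fold higher with LPS than with PBS, and at least 4.63-fold higher with LPS+TGFβ1 than with TGFβ1, and no p-value is given because the filter let it through by these same groups. These bounds use, per array, the lowest signal among probes above background.

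The LPS arrays numbered 2, 5, 6 and 8 had more IL1A than the other 4, and the LPS+TGFβ1 arrays of the same numbers had less than the other 4. LPS+TGFβ1 against LPS gave a log2 change of -0.39 ± 0.17 (adjusted p = 0.109), with -0.33, 0.26, -0.996 and -0.50 within chips 1 to 4 and a fall in 4 of 8 same-numbered pairs. The fall was called without chip 2 (-0.61, adjusted p = 0.0271) and without replicate 1 (-0.52, adjusted p = 0.0425).

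IL1RN, which encodes the receptor antagonist, rose with LPS, and its 2 tested probes had the largest standard errors of the 14. Probe ILMN_1774874 read 720, 3739, 613, 609, 4073, 4061, 608 and 3962 in replicates 1 to 8 with LPS+TGFβ1. It read 880, 5149, 898, 922, 5684, 4713, 922 and 5185 with LPS. The TGFβ1 arrays lay between 308 and 474 (median 376) and the PBS arrays between 312 and 447 (median 382). All LPS-treated arrays were above all TGFβ1 and PBS arrays, and those numbered 2, 5, 6 and 8 were several times higher than those numbered 1, 3, 4 and 7.

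The log2 change of LPS against PBS was 2.38 ± 0.44 (adjusted p = 3.6e-05) for this probe, between 1.13 and 3.60 within chips, and 2.90 ± 0.47 (adjusted p = 4.07e-06) for ILMN_1689734, between 1.76 and 4.01. TGFβ1 alone gave 0.02 ± 0.44 and 0.09 ± 0.47 (adjusted p = 0.988 and 0.944). LPS+TGFβ1 was lower than LPS in 8 of 8 same-numbered pairs by both probes, with log2 changes of -0.43 ± 0.44 and -0.52 ± 0.47 that did not pass (adjusted p = 0.523 and 0.456). Within chips these changes were -0.34 to -0.54 and -0.36 to -0.74. Same-numbered arrays of these groups deviated together, and when the 2 groups were fitted with replicate numbers as blocks both changes were called, with standard errors of 0.06 and 0.08 (adjusted p = 7.15e-05 and 0.000167). That fit was chosen after seeing the data, and the same block over all 4 treatments left both uncalled (adjusted p = 0.399 and 0.294). With array weights the changes had the opposite sign, 0.78 and 0.75 (adjusted p = 0.128 and 0.171). In order of level, LPS and LPS+TGFβ1 differed only in that 2-group fit, and TGFβ1 and PBS overlapped.

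**Figure D2:**
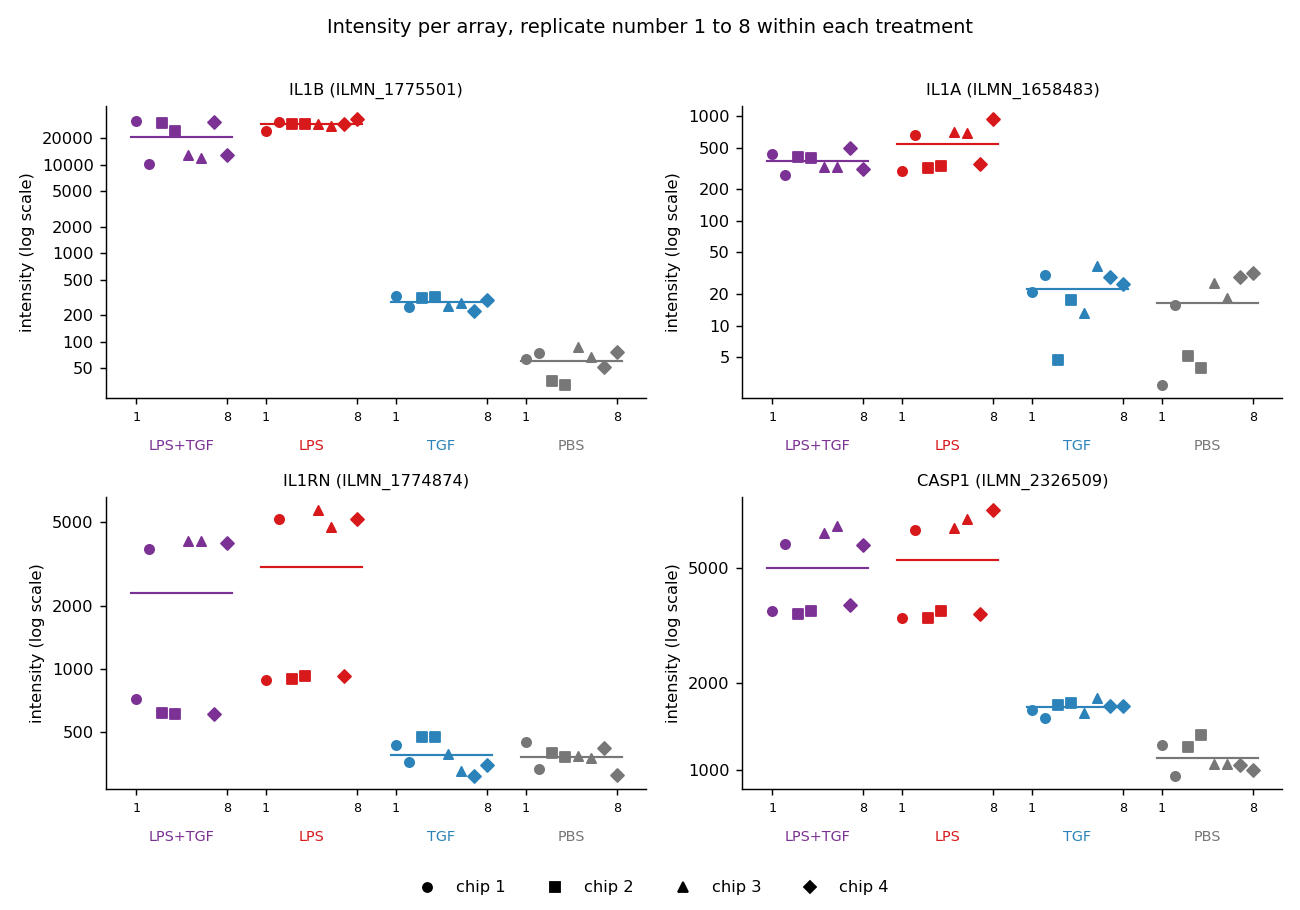
Intensity (log axis) of the brightest tested probe of IL1B, IL1A, IL1RN and CASP1 on each array, ordered by replicate number within LPS+TGF, LPS, TGF and PBS. Lines are group means and marker shapes are chips. IL1RN and CASP1 split by the same numbers with and without TGFβ1, whereas IL1B splits with LPS+TGFβ1 and lies between 23774 and 32816 with LPS.

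CASP1, which encodes the protease that matures IL-1β and IL-18, rose with each agent. Probe ILMN_2326509 read 3570, 6087, 3479, 3548, 6640, 7039, 3728 and 6025 in replicates 1 to 8 with LPS+TGFβ1. With LPS it read 3371, 6822, 3352, 3546, 6919, 7425, 3467 and 7966. The TGFβ1 arrays lay between 1507 and 1774 (median 1663) and the PBS arrays between 949 and 1316 (median 1043). The same array numbers as for IL1RN were high among the LPS-treated arrays, and no TGFβ1 array overlapped a PBS array.

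LPS raised CASP1 by 2.14 ± 0.18 and 2.15 ± 0.19 by its 2 tested probes (adjusted p = 4.72e-12 and 3.76e-11), between 1.28 and 2.72 within chips. TGFβ1 alone raised both by 0.57, with standard errors of 0.18 and 0.19 (adjusted p = 0.0286 and 0.049), in 8 of 8 same-numbered pairs. These 2 calls were the weakest of the CASP1 results. The first was lost without chips 1, 3 or 4 or replicates 2, 5, 6, 7 or 8 (adjusted p up to 0.118), and the second without chips 1, 3 or 4 or any replicate but 4 (up to 0.181). With replicate numbers as blocks in a fit of the 2 groups, adjusted p was 1.22e-05 and 9.24e-05. LPS+TGFβ1 against LPS changed them by -0.06 ± 0.18 and -0.03 ± 0.19 (adjusted p = 0.847 and 0.926), and by 0.40 and 0.46 with array weights, where they passed (adjusted p = 0.0472 and 0.0347). CARD16, a neighbour of CASP1 whose sequence is close to the CASP1 prodomain, rose by 1.41 ± 0.21 with LPS against PBS, and cross-hybridisation between them was not tested.

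NLRP3, the sensor of the best studied inflammasome, and PYCARD, its adaptor, were not called higher than PBS by any probe in any treatment. The brightest NLRP3 probe, ILMN_1712026, had medians of 2375 with LPS+TGFβ1 (1855 to 3025), 2474 with LPS (2098 to 3018), 2573 with TGFβ1 (2250 to 2774) and 2875 with PBS (2656 to 3171). The groups overlap throughout. LPS+TGFβ1 against PBS lowered all 3 NLRP3 probes, by log2 changes of -0.29 ± 0.09, -0.31 ± 0.08 and -0.50 ± 0.10 (adjusted p = 0.011, 0.00252 and 0.000147). The first was lost without chip 1 or 2 or replicate 3 or 4 (adjusted p from 0.0504 to 0.257) and the second without chip 2 (adjusted p = 0.105).

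LPS against PBS gave the 3 NLRP3 probes changes of -0.20, -0.21 and -0.23, of which the second was called (adjusted p = 0.0401) and lost without chips 1 or 2 or replicates 1, 3, 4 or 7 (adjusted p from 0.0703 to 0.357). The first was called without chip 3 (adjusted p = 0.0234) or replicate 5 (adjusted p = 0.0425), and the third with chip as a block (adjusted p = 0.0285). TGFβ1 against PBS gave -0.17, -0.18 and -0.26 (adjusted p = 0.281, 0.152 and 0.0978). The third probe, ILMN_1696933, was called when these 2 groups were fitted with replicate numbers as blocks (adjusted p = 0.0171), and likewise for LPS+TGFβ1 against LPS (-0.27, adjusted p = 0.00531, and 0.0629 without blocks). That change was also called without replicate 1 (adjusted p = 0.0372). In order of level the NLRP3 groups ran PBS, TGFβ1, LPS and LPS+TGFβ1 by the brightest probe, and neighbours did not differ beyond their spread.

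PYCARD read 702, 551, 546, 471, 657, 570.5, 481 and 645 in replicates 1 to 8 with LPS+TGFβ1. It read 451, 481, 508, 481, 442, 452, 431 and 428 with LPS. The TGFβ1 arrays lay between 489 and 730 (median 621) and the PBS arrays between 290 and 674 (median 618). LPS was the lowest group, and it was below TGFβ1 by a log2 change of -0.35 ± 0.11 (adjusted p = 0.0109), lower in 8 of 8 same-numbered pairs. That call was lost without chip 1 (adjusted p = 0.0672) or chip 2 (adjusted p = 0.0567). Against PBS, LPS gave -0.25 ± 0.11 (adjusted p = 0.0676), and -0.36 (adjusted p = 0.00115) without replicate 8, which holds the lowest PBS array. It was also called without chip 4, which holds that array, at -0.35 (adjusted p = 0.00338), and with chip as a block (adjusted p = 0.0363). LPS+TGFβ1 was higher than LPS by 0.29 ± 0.11, which did not pass (adjusted p = 0.0646) and did when the 2 groups were fitted with replicate numbers as blocks (adjusted p = 0.00921). It was also called without chips 2 or 4 or replicates 4 or 8 (adjusted p from 0.0386 to 0.0464).

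IL18, which encodes the second cytokine cut by caspase-1, was bright in every group and was called in no comparison by limma with equal array weights and no block. With array weights LPS+TGFβ1 was above PBS by 0.28 (adjusted p = 0.0189), against 0.22 ± 0.12 (adjusted p = 0.168) without them. Its medians were 13106 with LPS+TGFβ1 (11115 to 16916), 12581 with LPS (9430 to 15664), 13105 with TGFβ1 (9824 to 17261) and 11017 with PBS (8704 to 15255). All 4 groups overlapped. The log2 change of LPS against PBS was 0.12 ± 0.12 (adjusted p = 0.457), and 2 SE either way ran from -0.13 to 0.37. TGFβ1 against PBS gave 0.18 ± 0.12 (adjusted p = 0.427), higher in 7 of 8 same-numbered pairs and called when the 2 groups were fitted with replicate numbers as blocks (adjusted p = 0.0471). No pair of neighbours in the order of levels differed beyond the spread.

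IL18BP, whose product binds and neutralises IL-18, rose with TGFβ1 alone and fell with LPS alone. The fall with LPS was the smaller change, and its arrays overlapped the PBS arrays. Probe ILMN_2334296 read 411, 383, 456, 388, 459, 420, 386 and 420 in replicates 1 to 8 with LPS+TGFβ1. It read 430, 507, 413, 428, 607, 540, 450 and 580 with LPS. With TGFβ1 it read 800, 955, 878, 849, 1006, 861, 995 and 958, and with PBS 614, 567, 557, 587, 570, 619, 654 and 482. Every TGFβ1 array was above every other array, and every LPS+TGFβ1 array was below every PBS array.

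TGFβ1 raised IL18BP by 0.61 ± 0.07 against PBS (adjusted p = 6.13e-08), and LPS+TGFβ1 was below TGFβ1 by -1.05 ± 0.07 (adjusted p = 8.31e-14), between -0.96 and -1.18 within chips. LPS alone changed it by -0.22 ± 0.07 against PBS (adjusted p = 0.0127), a call lost without chips 1 or 2 or replicates 1, 4 or 7 (adjusted p up to 0.141). LPS+TGFβ1 was below LPS by -0.22 ± 0.07 (adjusted p = 0.0321), a call lost without chips 1, 3 or 4 or replicates 2, 5, 6, 7 or 8 (adjusted p up to 0.2). The interaction was -0.83 ± 0.10 (adjusted p = 7.21e-07), between -0.55 and -1.06 within chips. The order of levels was TGFβ1, PBS, LPS and LPS+TGFβ1, with every pair of neighbours called.

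**Figure D3:**
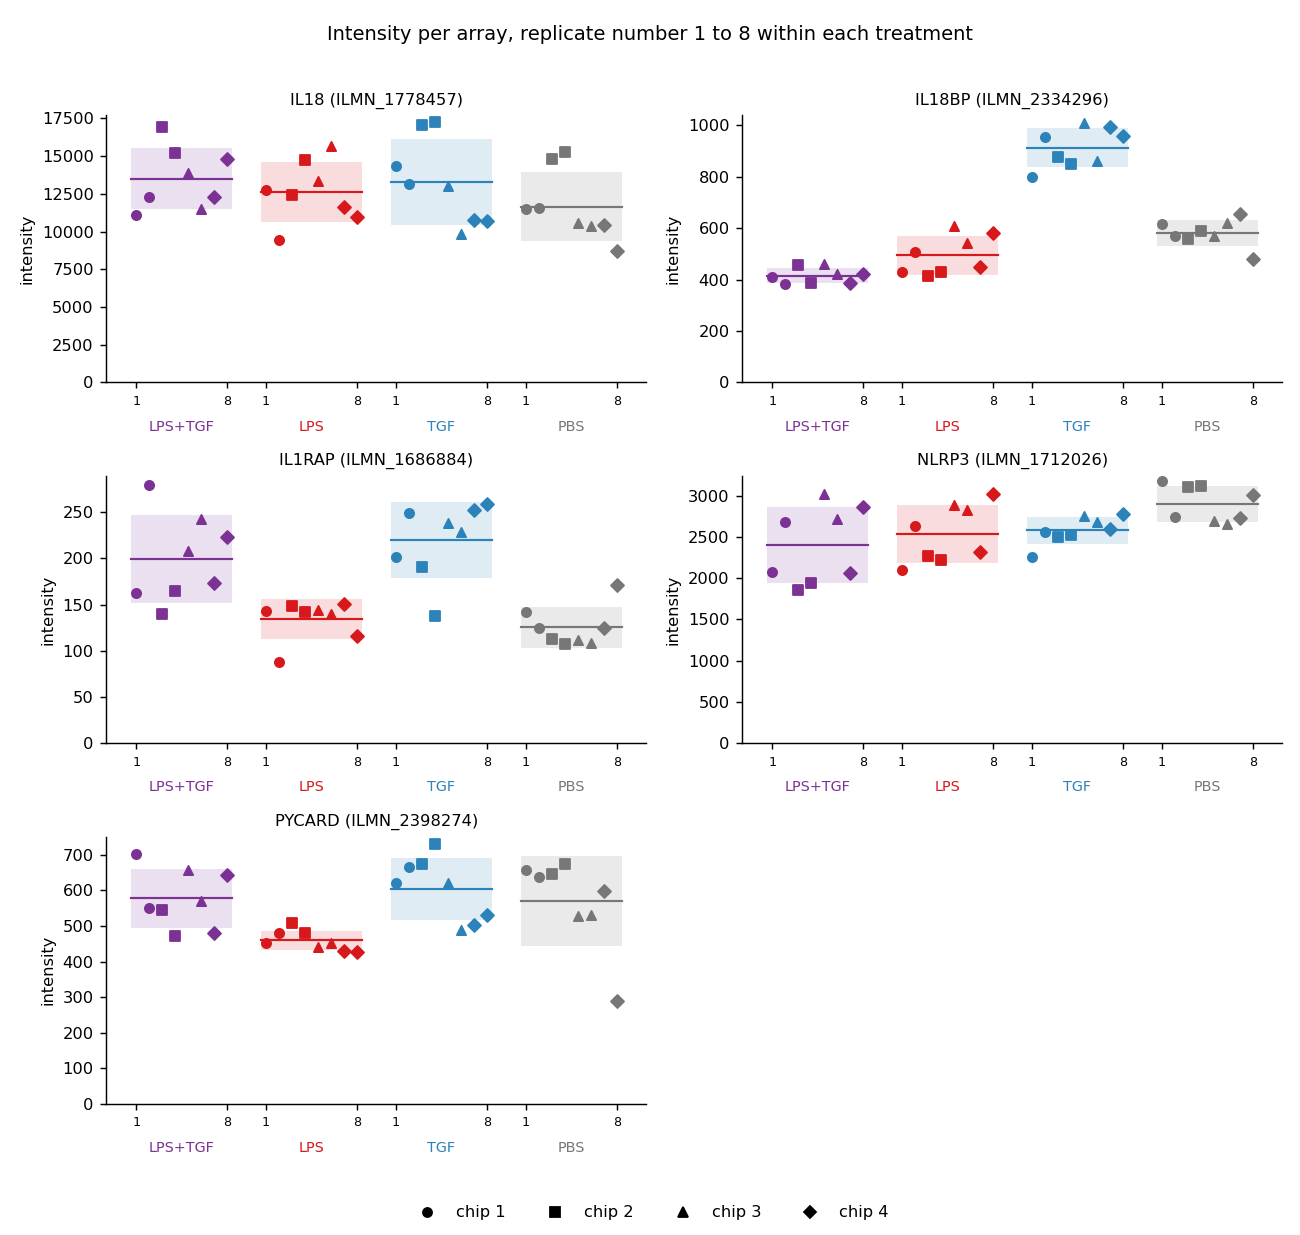
Intensity (linear axis from 0) of the brightest tested probe of IL18, IL18BP, IL1RAP, NLRP3 and PYCARD on each array, ordered by replicate number within LPS+TGF, LPS, TGF and PBS. Lines are means, shaded bands are 1 SD and marker shapes are chips. For IL18BP the TGFβ1 arrays lie between 800 and 1006, above all others.

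Of the receptor chains, IL1RAP was measurable and IL1R1, the ligand-binding chain, was not. The IL1R1 probe lay between -5.74 and 34.9 on the 32 arrays. IL1RAP probe ILMN_1686884 read 163, 280, 139, 165, 209, 243, 174 and 223 in replicates 1 to 8 with LPS+TGFβ1, and 143, 87.3, 148, 142, 144, 140, 151 and 116 with LPS. The TGFβ1 arrays lay between 138 and 259 (median 234) and the PBS arrays between 108 and 171 (median 118). The 2 groups with TGFβ1 were high and the 2 without it low, with some overlap.

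TGFβ1 raised this IL1RAP probe by 0.62 ± 0.11 against PBS (adjusted p = 6.36e-05), in 8 of 8 same-numbered pairs. LPS+TGFβ1 was above LPS by 0.43 ± 0.11 (adjusted p = 0.00448), between 0.05 and 0.70 within chips, a call lost without chip 1 (adjusted p = 0.0691), chip 3 (adjusted p = 0.0618) or replicate 2 (adjusted p = 0.0508). LPS alone gave 0.07 ± 0.11 against PBS (adjusted p = 0.635). The dimmer probe, ILMN_2357062, gave 0.36 ± 0.12 for TGFβ1 against PBS (adjusted p = 0.0476), a call lost without chips 2, 3 or 4 or replicates 2 to 7 (adjusted p up to 0.238). For LPS+TGFβ1 against LPS the dimmer probe was not called. With a chip or replicate number left out, that change was 0.03 to 0.21 (limma adjusted p from 0.311 to 0.916). In order of level, TGFβ1 and LPS+TGFβ1 did not differ beyond their spread, and neither did LPS and PBS.

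**Figure D4:**
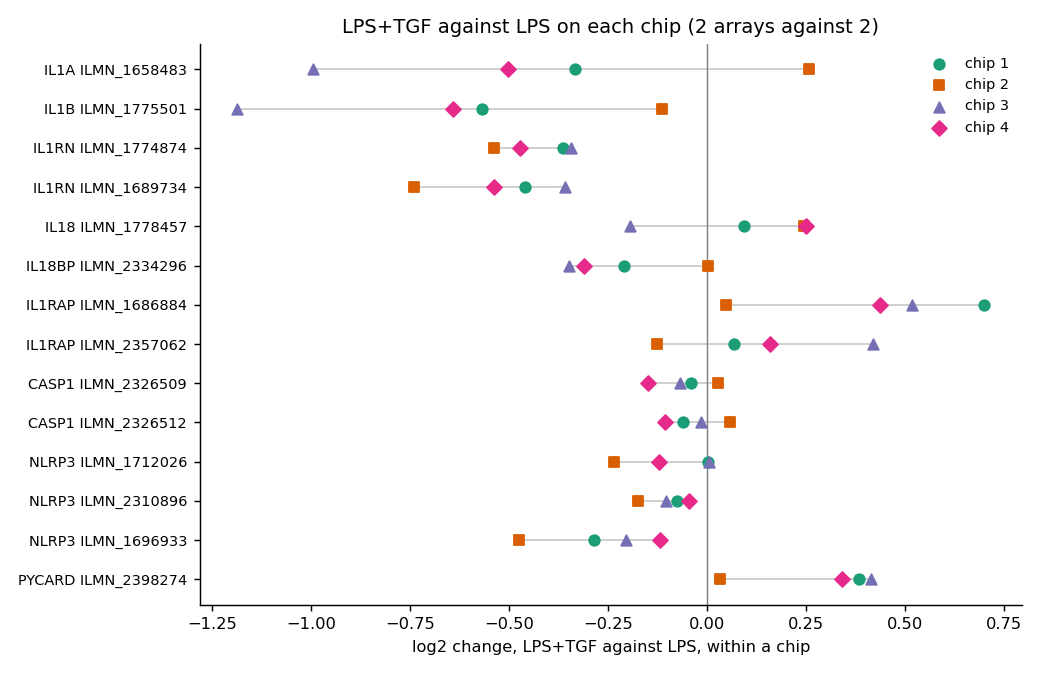
Log2 change of LPS+TGFβ1 against LPS within each of the 4 chips (2 arrays against 2) for the 14 tested member probes. Both IL1RN probes lie below 0 on every chip, at -0.34 to -0.74, and IL1B runs from -0.11 on chip 2 to -1.19 on chip 3.

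The rest of the pathway was read from 6 lists of 59 genes, of which 56 were on the array and 47 were tested, each by its brightest probe. LPS against PBS raised 22 and lowered 7 of the 47, TGFβ1 against PBS raised 9 and lowered 4, and LPS+TGFβ1 against LPS raised 5 and lowered 10. Over all probes 20.9% rose and 21.0% fell, 7.54% rose and 5.70% fell, and 8.19% rose and 10.1% fell in these 3 comparisons, the shares beside which each list below is to be read. Among 5 tested receptors of the family, LPS raised 2 and lowered 1, where 41.9% of all probes were called. The chains of the IL-18 receptor, IL18R1 and IL18RAP, were the 2 that rose, by 3.30 ± 0.14 and 3.22 ± 0.16, the first against PBS arrays of which 3 of 8 were above background, and SIGIRR, an inhibitory receptor of the family, fell by 1.03 on the log2 scale, with standard error 0.06. IL18RAP had medians of 715 with LPS+TGFβ1 (508 to 888), 2169 with LPS (1460 to 2817), 43.2 with TGFβ1 (37.7 to 56.3) and 154 with PBS (122 to 288). Neither TGFβ1 group overlapped its counterpart without TGFβ1. LPS+TGFβ1 was below LPS by -1.50 ± 0.16 for IL18RAP (adjusted p = 6.77e-09) and -0.74 ± 0.14 for IL18R1 (adjusted p = 0.000273), and TGFβ1 was below PBS by -1.26 ± 0.16 for IL18RAP (adjusted p = 2.07e-07).

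Of 11 tested genes that carry the receptor signal, LPS raised 6 and lowered 2 against PBS, and LPS+TGFβ1 raised 1 and lowered 5 against LPS, beside 41.9% and 18.3% of all probes called. IRAK2, a kinase of the receptor complex, had medians of 1780 with LPS+TGFβ1 (827 to 3006), 3905 with LPS (3503 to 4978), 269 with TGFβ1 (244 to 444) and 131 with PBS (109.5 to 250.1). As for IL1B, TGFβ1 raised it against PBS, by 0.86 ± 0.22 (adjusted p = 0.00681), and the interaction was negative, at -2.11 ± 0.32 (adjusted p = 2.06e-05). Unlike for IL1B, its TGFβ1 and PBS arrays overlapped. PELI1, an E3 ligase of the pathway, rose by 3.09 ± 0.29 with LPS against PBS, whereas its relative PELI2 fell by 1.58 on the log2 scale, with standard error 0.15. IRAK1, the kinase acting with IRAK2, was raised by TGFβ1 both without LPS (0.75 ± 0.08) and with it (0.40 ± 0.08, adjusted p = 0.000519).

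Of 10 tested genes in the list of inflammasome and related sensors, LPS raised 5 against PBS, beside 20.9% of all probes. IFI16, a DNA sensor, rose by 3.46 ± 0.28, and NOD2, a sensor of bacterial peptidoglycan, by 1.89 ± 0.22. NOD2 was higher still with LPS+TGFβ1 than with LPS, by 0.83 ± 0.22 (adjusted p = 0.0057). NLRC4, another gene of this list, had medians of 195 with LPS+TGFβ1 (173 to 215), 109 with LPS (96.6 to 127), 150 with TGFβ1 (127 to 216) and 52.3 with PBS (40.6 to 60.4). It rose by 1.00 ± 0.07 with TGFβ1 against PBS (adjusted p = 2.72e-13) and by 0.61 ± 0.07 with LPS+TGFβ1 against LPS (adjusted p = 3.39e-08).

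Of 7 tested genes in the list of caspases and inflammasome regulators, LPS raised 3 against PBS, beside 20.9% of all probes. CASP5, an inflammatory caspase that binds LPS inside cells, was above background on all 8 LPS arrays and on no PBS array, a difference of at least 7.37-fold. CASP4, its relative, rose by 0.98 ± 0.14. Of 10 genes for triggers and partners of the inflammasome, LPS raised 4 and lowered 4, beside 20.9% and 21.0% of all probes. P2RX7, the ATP-gated channel that triggers NLRP3, had medians of 974 with LPS+TGFβ1 (642 to 1320), 2278 with LPS (1980 to 2312), 251 with TGFβ1 (229 to 338) and 209 with PBS (186 to 271). LPS+TGFβ1 was below LPS by -1.21 ± 0.13 (adjusted p = 5.57e-09), between -0.73 and -1.64 within chips. PANX1, a membrane channel that releases ATP, rose with LPS by 1.79 ± 0.11 and with TGFβ1 by 0.66 ± 0.11 against PBS.

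Of 4 tested other ligands of the family, LPS raised 2 against PBS, beside 20.9% of all probes. IL36G, which encodes an inflammatory cytokine of the IL-36 branch, was above background on all 8 LPS arrays and on no PBS array, a difference of at least 1.504-fold. With LPS+TGFβ1 it was above background on 2 of 8 arrays, between 30.0 and 43.8, against 50.5 to 137 with LPS. It passed the brightness filter through the LPS arrays. The other call was IL36RN, which was above background on none of the LPS or PBS arrays. That call was lost without chip 1, 2 or 3 or any replicate but 7 (adjusted p up to 0.219), and with array weights (adjusted p = 0.613).

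**Figure D5:**
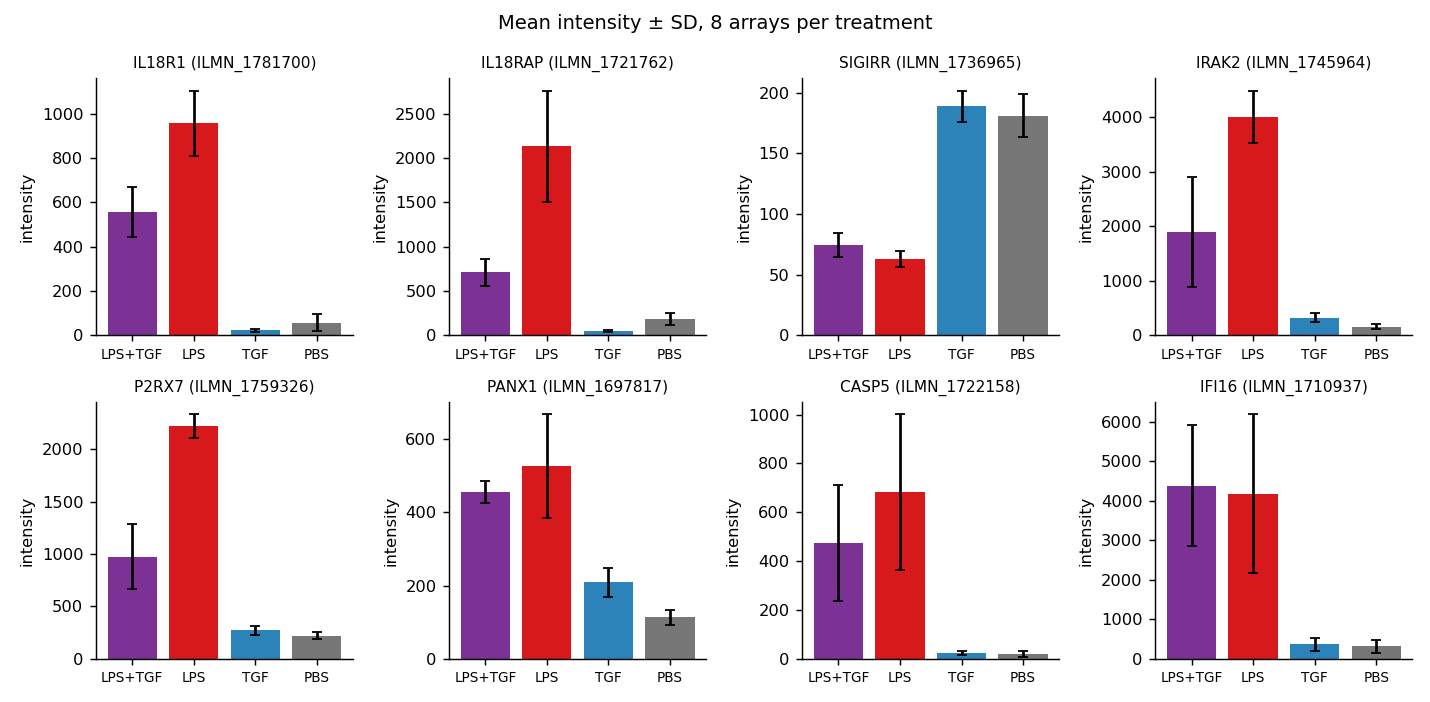
Mean intensity with SD over 8 arrays per treatment for 8 pathway genes, in the order LPS+TGF, LPS, TGF and PBS. For IL18RAP, IRAK2 and P2RX7 the LPS bar is the highest, and no LPS+TGFβ1 array reached the lowest LPS array.

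Genes with the most similar pattern over the 4 treatments were ranked by the root mean square difference between centred treatment means on the log2 scale. This is a description over 4 points and carries no p-value. The closest to IL1B were IGFBP3 at 0.25, EBI3 at 0.56 and CCL8 at 0.60. Those of IL1A were IFI6 at 0.04, CASP5 at 0.11 and TNFSF10 at 0.11. IL1RN was closest to MAFA, OASL and STX11, at 0.02 to 0.05, CASP1 to PLEKHO2, REC8 and CSRNP1, at 0.03 to 0.07, and IL18BP to ACSM3, CD52 and ATP2B3, at 0.06 to 0.08. DUSP22, ELK3 and MTMR3 were closest to IL1RAP, at 0.03 to 0.04. The genes closest to IL18, NLRP3 and PYCARD, whose treatment means differed little, are not named.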

How the data were processed

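RNA of 32 THP-1 arrays (Illumina HumanRef-8) was analysed from the authors' deposited intensity values, on a linear scale, in the series' value table. The submitters' processing notes name BeadStudio 3.2. Which step it served, and how values were normalized, is not given in the sources used here. A table of non-normalized signal has 64 columns whose headings match no label; these were not used. Treatments and replicate numbers came from the titles. Values were set to log2(intensity + 50), the 25% of probes with the lowest mean were left out, and limma 3.58.1 (R 4.3.3) was run on 18388 of 24518 probes (4 group means, two-sided, Benjamini-Hochberg). Background was set per array at the mode plus 3 SDs, with the SD taken from the values below the mode. Errors are SE of the fit unless called SD. The number of arrays limits the precision.

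Alternatives were other offsets (16 and 100), scalings, filters (no filter, or the lowest 50% left out), chip and replicate number as blocks, array weights, single chips, chips or replicate numbers left out, and the groups compared only. The members, motifs and lists were chosen with earlier results of these data known. Same-numbered arrays deviated together (correlation over 0.1) in 8 of 8 pairs for LPS+TGFβ1 with LPS (0.52 to 0.68) and TGFβ1 with PBS (0.14 to 0.72), and in 7 of 8 for the others. By this correlation, the closest array of another treatment had the same number in 48 of 96 cases. That held in all 3 other treatments for 5 of 32 arrays. The paired fit of 2 groups was chosen after seeing the data. On simulated data limma recovered 98 of 100 changes of log2 size 1 and 100 of 100 of size 2, with 8 false calls among 18388 probes, for LPS against PBS. The simulation changed few probes and drew independent noise for each probe and array. It left out the component that the real residuals share, so its rates may not hold for these data. The named genes are all member probes, the 3 largest called changes per list and comparison, and the 3 genes most similar in pattern; fewer are named than the rule allows. Comparing arrays within a treatment found no duplicates. Erythroid markers were not analysed here.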

Additional observations from a re-analysis of the deposited data

Results flagged for a closer look

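In 4 of 56 sets of 8 arrays a single array stood far from the other 7, where chance flags about 1 in 20. These were the PBS array 1 for IL1RN probe ILMN_1689734, with an intensity of 213.95, the TGFβ1 array 1 for IL1RAP probe ILMN_2357062, with 60.46, the PBS array 1 for NLRP3 probe ILMN_1696933, with 718.72, and the PBS array 8 for PYCARD, with 289.6.

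The effect of LPS differed with and without TGFβ1 for 2 members. The LPS effect with TGFβ1, less the LPS effect without it, was on the log2 scale -2.2192 for IL1B and -0.8263 for IL18BP, by limma's interaction term.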

How the results depend on the processing

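The numbers of arrays and the uneven scatter of arrays within treatments limit the precision. Of 5086 comparisons of a log2 change with an alternative, 4644 kept their side of the threshold, 362 lost the call, 73 gained it and 7 changed sign with a call on either side. In 104 of the 4644 the sign differed with no call on either side, among them IL1RN with array weights. The 7 were IL18BP within chip 2 in LPS+TGFβ1 against LPS (0.0018), CASP1 with array weights in the same comparison (0.4028 and 0.4625), NLRP3 within chip 3 in LPS+TGFβ1 against PBS (0.0989) and LPS against PBS (0.0225), PYCARD within chip 2 in LPS+TGFβ1 against PBS (-0.3504) and IL36RN within chip 4 in LPS against PBS (-0.0134). The causes were not tested.

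Member probes called within chips 1 and 4 fell to 4 and 4 for LPS against PBS (8 over all arrays), 0 and 0 for TGFβ1 against PBS (6), 4 and 4 for LPS+TGFβ1 against PBS (11), 0 and 0 for LPS+TGFβ1 against LPS (3), 4 and 3 for LPS+TGFβ1 against TGFβ1 (7), 5 and 3 for LPS against TGFβ1 (10) and 0 and 0 for the interaction (2), each with 8 arrays. Calls over all probes fell too, to 1613 and 1792 for LPS against PBS (7705 over all arrays), 142 and 132 for TGFβ1 against PBS (2434), 90 and 80 for LPS+TGFβ1 against LPS (3367) and 0 and 0 for the interaction (1339). These calls also fell to 1546 and 1723 for LPS+TGFβ1 against PBS (7334) and 683 and 763 for LPS+TGFβ1 against TGFβ1 (5788). For LPS against TGFβ1 they fell to 1369 and 1464 (7797). Chips 2 and 3, with as many arrays, had 11 and 7 member probes called for LPS against PBS. Over all probes they had 7134 and 7248. Chips 1 and 4 each held arrays from both sides of the split seen with LPS (1 and 2, 7 and 8), which chips 2 and 3 did not. Whether this lowered the calls was not tested. With the replicate number as a block over all arrays, the NLRP3 probes ILMN_1712026 and ILMN_1696933 and PYCARD were called lower for LPS against PBS (adjusted p = 0.0377, 0.0174 and 0.0436). Within chip 2, 11 member probes were called for LPS+TGFβ1 against TGFβ1, and the interaction had 5 within chips 2 and 3. Over all probes 5782 were called within chip 2 for LPS+TGFβ1 against TGFβ1 (5788 over all arrays). The interaction had 957 and 1659 of all probes within chips 2 and 3 (1339 over all arrays). TGFβ1 against PBS had 3 without chip 3 or 4. Over all probes 1099 rose and 641 fell without chip 3, and 1138 and 770 without chip 4 (1386 and 1048 over all arrays). LPS+TGFβ1 against LPS had 1 with median scaling, 5 with the chip or the replicate number as a block or with array weights, 1, 5 and 0 without chips 1, 2 and 3, and 7 in the paired fit of the 2 groups. Over all probes the main fit had 1506 rises and 1861 falls here. There were 1909 and 2861 with chip blocks, 2056 and 3227 with replicate blocks, and 2590 and 2942 with array weights. Median scaling gave 2066 and 884, and the paired fit 2414 and 3979. Without chips 1, 2 and 3 they were 1081 and 1108, 1393 and 1494, and 1027 and 1019. The member counts are to be read beside these. Without each replicate number in turn the counts were 6 to 9 for LPS against PBS, 3 to 5 for TGFβ1 against PBS (3 without number 2, 5, 6 or 7), 10 to 11 for LPS+TGFβ1 against PBS, 0 to 5 for LPS+TGFβ1 against LPS (0 without number 2, 1 without 5 or 6, 5 without 1), 7 to 7 for LPS+TGFβ1 against TGFβ1, 9 to 10 for LPS against TGFβ1 and 2 to 2 for the interaction. Over all probes LPS+TGFβ1 against LPS gave 1205 rises and 1201 falls without number 2, and 1463 and 1958 without number 1. TGFβ1 against PBS gave 1174 to 1298 rises and 761 to 910 falls without number 2, 5, 6 or 7. Over all probes LPS against PBS gave 3444 to 3843 rises and 3493 to 3818 falls without each number in turn. LPS+TGFβ1 against PBS gave 3068 to 3241 rises and 3567 to 4081 falls. LPS+TGFβ1 against TGFβ1 gave 2462 to 2663 and 2665 to 2943. LPS against TGFβ1 gave 3450 to 4309 and 3243 to 3554, and the interaction 287 to 458 and 522 to 719.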
